A study of Mus musculus with 12 samples.

Results

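The genes described here are 10 mouse genes that encode ligands and receptors through which immune cells restrain one another. They were taken by symbol from the 57010 genes of a count table: Cd274, Pdcd1lg2, Vsir, Vsig4, Havcr2, Lgals9, Lgals3, Sirpa, Cd47 and Siglec1. All 10 were found, and 8 passed the low-count filter into the 15943 genes tested, all but Pdcd1lg2 and Havcr2. They were measured by RNA-seq in large peritoneal macrophages of female mice, sorted as F4/80 high and MHC class II low cells. WT naive and Tim4KO naive cells came from wild-type mice and from mice without the scavenger receptor Tim4, neither given tumour cells. WT ID8 and Tim4KO ID8 cells came from mice of those genotypes, injected intraperitoneally at 8 weeks of age with ID8ZGO, the mouse ovarian tumour line ID8 carrying ZsGreen and ovalbumin (OVA). They were taken 24 h after challenge, and only as ZsGreen+ cells. No ZsGreen selection applied to naive cells, so tumour challenge and uptake of tumour material cannot be told apart. Each group held 3 libraries, numbered as in the labels. No age is given for naive mice, and nothing in the labels says whether libraries came from single or pooled animals or how the Tim4KO allele was made. If libraries of a group were not separate animals, the p-values measure technical spread only.

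Checkpoint ligands act at contacts between cells. Cd274 encodes PD-L1 and Pdcd1lg2 encodes PD-L2, both ligands of the T cell receptor PD-1, and Cd274 is a classical target of interferon gamma signalling. Vsir encodes VISTA, and Vsig4 encodes CRIg, a complement receptor of resident tissue macrophages that also restrains T cells. Lgals9 encodes galectin-9, a ligand of the Havcr2 product TIM-3, and Lgals3 encodes galectin-3, which binds glycans on many surface proteins. Sirpa encodes the inhibitory macrophage receptor for CD47, the "do not eat me" signal that healthy and tumour cells display, so this pair bears directly on phagocytosis. Siglec1 encodes sialoadhesin (CD169), a macrophage adhesion receptor for sialic acid and a known interferon-inducible gene.

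Library totals ran from 7358559 to 23170244 counts, and a count of 3 equalled 0.137 to 0.399 CPM (counts scaled to the library size with TMM factors, the unit of every level below). Timd4, which encodes Tim4, was at 1315 ± 159 CPM (SD, n = 3) in WT naive and 7.41 ± 0.262 CPM in Tim4KO naive cells. After challenge it was at 1150 ± 286 CPM in WT and 1.72 ± 0.291 CPM in Tim4KO cells. Of 8 markers of large peritoneal macrophages, among them Adgre1, Gata6 and Icam2, all had at least 3 counts in every library. Their summed level was 48116 to 54916 CPM in naive and 19559 to 24665 CPM in challenged libraries, most of it Lyz2, the lysozyme gene, whose WT mean was 45845 CPM when naive and 12773 CPM after challenge (44156 and 13848 CPM in Tim4KO cells). The means of Adgre1, Gata6, Icam2 and Itgam were higher after challenge in both genotypes, and those of Csf1r, Selp, Cd93 and Lyz2 lower. The summed level of 9 epithelial, mesothelial or tumour cell markers was 5.74 to 25.1 CPM in naive and 1.60 to 5.35 CPM in challenged libraries. That of 7 neutrophil markers was 7.61 to 8.28 CPM in naive, 10.0 to 29.3 CPM in WT ID8 and 17.4 to 23.7 CPM in Tim4KO ID8 libraries. The summed level of 7 markers of small peritoneal macrophages or dendritic cells was 66.7 to 87.1 CPM in naive and 17.6 to 50.6 CPM in challenged libraries. The largest fall was in Cd209a. In WT cells the Cd209a mean went from 34.5 to 4.92 CPM, and in Tim4KO cells from 27.0 to 5.19 CPM. The means of Irf4, Zbtb46 and Ciita were also lower after challenge in both genotypes. That of Ccr2 was not lower in either, and those of Flt3 and Itgax were lower in WT and higher in Tim4KO cells. The summed level of 6 mast cell or eosinophil markers was 12.6 to 34.1 CPM in naive and 1.84 to 9.15 CPM in challenged libraries. For 6 B cell markers it was 8.34 to 21.8 CPM and 3.44 to 8.52 CPM. Of these 5 lists, Ngp, a neutrophil granule gene, was at 0 throughout WT ID8, the defining neutrophil gene Ly6g summed to 2 to 6 counts per group, the eosinophil granule gene Prg2 was at 0 throughout both WT groups, and no other marker was at 0 in all libraries of a group. Their part in the results below was not tested. Background, read as the summed level of 1947 low olfactory and vomeronasal receptor genes, was higher in naive libraries (267 to 836 CPM) than in most challenged ones (6.25 to 362 CPM). WT ID8 3 stood apart, with the deepest sequencing and the lowest background. The results that rest on it are given with and without it.

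Of the 4 members that rose on challenge in WT cells with 3 against 3 libraries fully apart, 3 had a promoter in the RefSeq table of build GRCm38.p6. These are shown to let a reader see what such transcripts carry in front of their start. The table held 8 of the 10 members. The windows are the 250 bases before the annotated start, 5′ to 3′ on the gene's own strand, at chr19:29367188-29367437 (plus strand) for Cd274, chr11:78984925-78985174 (minus strand) for Lgals9 and chr14:47373610-47373859 (plus strand) for Lgals3. Capitals mark matches to the motifs listed after them.
Cd274: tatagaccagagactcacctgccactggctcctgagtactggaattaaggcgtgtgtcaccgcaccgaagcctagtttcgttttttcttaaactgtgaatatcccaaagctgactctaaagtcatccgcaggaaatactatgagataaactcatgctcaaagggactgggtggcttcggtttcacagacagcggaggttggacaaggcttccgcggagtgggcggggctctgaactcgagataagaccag
Lgals9: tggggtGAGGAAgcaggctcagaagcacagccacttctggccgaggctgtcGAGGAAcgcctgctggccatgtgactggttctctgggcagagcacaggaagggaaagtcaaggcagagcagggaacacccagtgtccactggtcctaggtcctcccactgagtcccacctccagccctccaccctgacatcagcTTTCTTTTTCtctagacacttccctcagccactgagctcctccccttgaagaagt
Lgals3: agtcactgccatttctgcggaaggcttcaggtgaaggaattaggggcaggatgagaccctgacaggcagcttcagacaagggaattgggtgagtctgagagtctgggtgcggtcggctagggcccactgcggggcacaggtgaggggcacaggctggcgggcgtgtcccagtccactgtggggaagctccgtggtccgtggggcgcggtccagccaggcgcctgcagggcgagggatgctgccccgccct

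The motifs were searched on both strands, and overlaps with another motif were allowed. They were the ISRE core, 2 copies of GAAA with 2 bases between them, bound by interferon-activated factors, GAS TTCNNNGAA, AP-1 TGANTCA, the PU.1 core GAGGAA, and the NF-kB consensus. Of all 32851 windows of this length, 2.977% held the ISRE core, 7.02% GAS, 6.749% AP-1, 23.25% the PU.1 core and 3.899% the NF-kB consensus. Lgals9 held the ISRE core, read as TTTCTTTTTC on its own strand, at positions -55 to -46 from the start, and 2 copies of the PU.1 core. The Cd274 and Lgals3 windows held none of these letters, nor did those of Vsir and Cd47. RefSeq held 2 windows for Cd47, and only the first is described. Vsig4 held 2 copies of the PU.1 core, Pdcd1lg2 the NF-kB consensus and the PU.1 core, and Havcr2 AP-1 and the PU.1 core. A match describes the letters and not a bound site, and a window without one says nothing of the factor.

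Levels between genes were compared as CPM per kilobase of exon. In WT naive cells Vsig4 was highest at 354.7 CPM per kb, followed by Lgals3 at 149.6 CPM per kb. Lgals9 and Vsir came next at 107 and 104 CPM per kb, with overlapping libraries, then Sirpa and Cd47 at 61.8 and 54.1 CPM per kb, also overlapping. Siglec1 and Cd274 were far lower at 4.76 and 2.5 CPM per kb, and their libraries overlapped. Havcr2 and Pdcd1lg2 were last at 0.227 and 0.0600 CPM per kb. The resting cells thus held much more transcript of the complement receptor and the galectins than of the PD-1 ligands. In Tim4KO naive cells the order differed only among neighbours with overlapping libraries (Havcr2 and Pdcd1lg2 changed places).

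After challenge Lgals3 took first place in both genotypes, at 385.6 CPM per kb in WT ID8 and 328.8 CPM per kb in Tim4KO ID8 cells, with all of its libraries above those of the next gene. Vsig4 and Lgals9 followed with overlapping libraries, at 263 and 243.5 CPM per kb in WT ID8 and 204 and 206 CPM per kb in Tim4KO ID8 cells. Sirpa and Vsir overlapped in WT ID8 (93.7 and 86.8 CPM per kb), while in Tim4KO ID8 Vsir (101 CPM per kb) lay above Sirpa (83.6 CPM per kb) in every library. Cd47 was below these in both. Siglec1 and Cd274 stayed in the low range, at 12.4 and 6.97 CPM per kb in WT ID8 and 11.4 and 3.77 CPM per kb in Tim4KO ID8 cells.

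**Figure D1:**
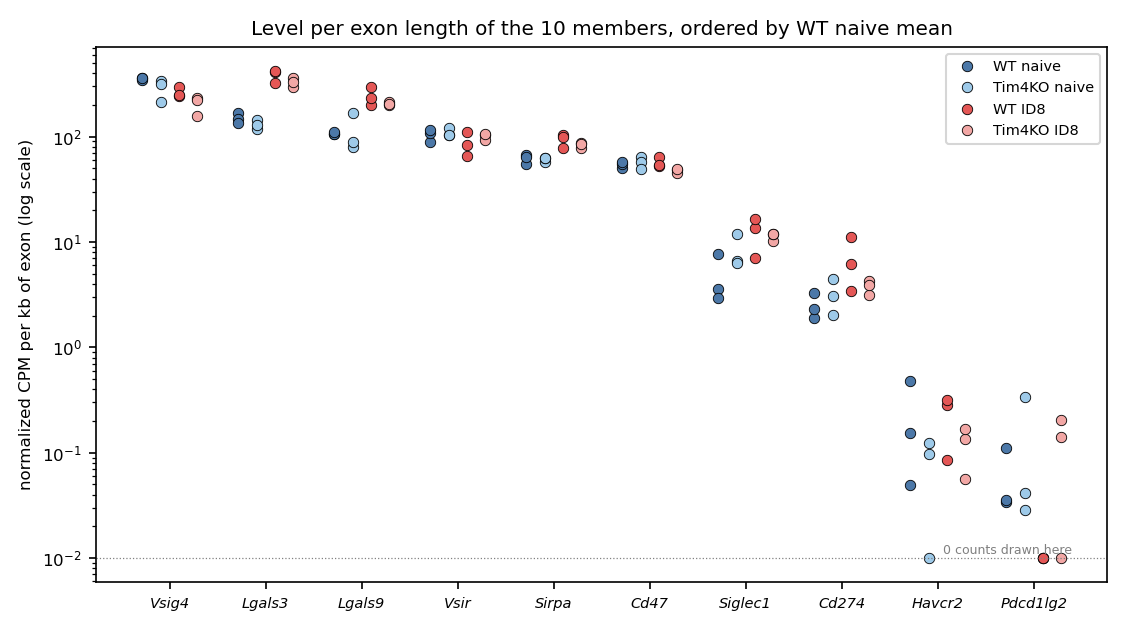
Level of the 10 genes per library as normalized CPM per kilobase of exon on a log axis, ordered by the WT naive mean, with 1 point per library and colours for the 4 groups. Vsig4 leads in naive cells at 354.7 CPM per kb in WT, Lgals3 leads after challenge, and Cd274, Havcr2 and Pdcd1lg2 lie lowest.

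Of the 8 tested members, 5 rose on challenge in WT cells (Cd274, Lgals9, Lgals3, Sirpa and Siglec1) and none fell. Of all tested genes 31.8% were called in that comparison, 19.5% higher and 12.3% lower. In Tim4KO cells 3 of the 8 rose (Lgals9, Lgals3 and Sirpa) and none fell, where 16.6% of all genes were called, 11.5% higher and 5.06% lower. The median log2 fold change of the 8 was 0.89 in WT and 0.35 in Tim4KO cells, beside -0.04 and -0.05 for all tested genes. The members were chosen with earlier results of these data known, so these counts and medians describe them and do not test the set. A gene was called at an edgeR adjusted p under 0.05 over all 15943 genes. The 3 libraries of each condition did not overlap for 5 members in WT (44.4% of all genes) and 4 in Tim4KO cells (41.9%).

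Cd274 had 11.8, 6.88 and 8.45 CPM in the 3 WT naive libraries and 22.6, 40.7 and 12.5 CPM in WT ID8. Every challenged WT library was above every naive one, but WT ID8 2 stood above all other libraries and WT ID8 3 was close to the highest naive one. The rise was 1.48 on the log2 scale (SE 0.40, edgeR adjusted p = 0.0157), or 2.80-fold. In Tim4KO cells Cd274 had 16.0, 7.32 and 11.0 CPM when naive and 11.3, 15.6 and 14.1 CPM after challenge, so the groups overlapped. There the log2 difference was 0.24 (SE 0.39, edgeR adjusted p = 0.722).

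The size of the WT difference in Cd274 moved with single libraries. It was 0.95 without WT ID8 2 (edgeR adjusted p = 0.0442) and 1.84 without WT ID8 3 (edgeR adjusted p = 0.000796), and it missed the threshold without WT naive 2 or WT naive 3 (edgeR adjusted p = 0.0582 and 0.0588). Counts behind these values were 55 to 474 per library. Exons of Cd274 share 511 bases with the antisense gene AC119228.1, and how the authors' counting treated strand is not given in the sources used here, so reads of the pair cannot be told apart in that stretch.

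Tim4KO ID8 cells had less Cd274 on average than WT ID8 cells, at 13.7 ± 2.18 against 25.2 ± 14.3 CPM (SD, n = 3), but the libraries overlapped. The log2 difference was -0.88 with a 95% interval of -1.73 to -0.03 and did not pass over all genes (edgeR adjusted p = 0.396). It was -0.35 without WT ID8 2 (edgeR adjusted p = 0.825) and -1.23 without WT ID8 3, where it passed (edgeR adjusted p = 0.0346). It also passed in the fit without the low-count filter (-0.93, edgeR adjusted p = 0.00649). The challenge response in Tim4KO cells minus that in WT cells was -1.24 on the log2 scale (SE 0.56, 95% interval -2.46 to -0.02, edgeR adjusted p = 0.668). Among the alternatives it passed only in that same unfiltered fit (-1.32, edgeR adjusted p = 0.0233). A difference in the Cd274 response between genotypes was therefore not shown by the main test.

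Pdcd1lg2, the other PD-1 ligand, was at the limit of detection. WT naive libraries held 2, 1 and 1 counts and WT ID8 libraries 0, 0 and 0. Tim4KO libraries held 1, 5 and 1 counts when naive and 0, 3 and 7 after challenge. At this depth no group can be told from another, and the highest library was at 0.666 CPM.

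Vsir, the VISTA gene, was high and even. It had 441, 542 and 582 CPM in WT naive, 523, 612 and 521 CPM in Tim4KO naive, 416, 332 and 558 CPM in WT ID8, and 524, 471 and 529 CPM in Tim4KO ID8 libraries. All groups overlapped, and the lowest library, WT ID8 2, was the one with the most Cd274. The challenge difference was -0.26 on the log2 scale in WT (SE 0.17, edgeR adjusted p = 0.233) and -0.12 in Tim4KO cells (SE 0.17, edgeR adjusted p = 0.677). The WT difference passed without WT ID8 3 (-0.48, edgeR adjusted p = 0.0206), with upper-quartile scaling (-0.49, edgeR adjusted p = 0.0366) and with background fitted as a covariate (-0.57, edgeR adjusted p = 0.0355).

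Vsig4, the complement receptor gene, had 535, 509 and 535 CPM in WT naive and 361, 439 and 371 CPM in WT ID8 libraries, with no overlap. In Tim4KO cells it had 505, 473 and 317 CPM when naive and 346, 233 and 329 CPM after challenge. Here Tim4KO naive 3 fell among the challenged libraries. The log2 differences were -0.43 in WT (SE 0.18, edgeR adjusted p = 0.074) and -0.51 in Tim4KO cells (SE 0.18, edgeR adjusted p = 0.0629), both short of the threshold. Other scalings carried both past it: with DESeq2 size factors they were -0.49 and -0.56 (edgeR adjusted p = 0.049 and 0.0447), with DESeq2 itself -0.49 and -0.56 (DESeq2 adjusted p = 0.0292 and 0.0154), and with upper-quartile scaling -0.68 and -0.62 (edgeR adjusted p = 0.00782 and 0.0194). The upper-quartile values are to be read against the median of all genes, which under that scaling was -0.28 in WT and -0.17 in Tim4KO cells. In Tim4KO cells the difference also passed without Tim4KO naive 3 (-0.69, edgeR adjusted p = 0.0257), with the background covariate (-0.55, edgeR adjusted p = 0.0419) or without WT ID8 3 (-0.51, edgeR adjusted p = 0.0419).

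Vsig4 was also the only member whose libraries separated by genotype in both conditions. Every Tim4KO naive library (317 to 505 CPM) lay below every WT naive one (509 to 535 CPM), and every Tim4KO ID8 library (233 to 346 CPM) below every WT ID8 one (361 to 439 CPM). The log2 differences of -0.29 in naive and -0.37 in challenged cells did not pass (edgeR adjusted p = 0.831 and 0.422). Such separation was found for 1 member in naive cells, beside 14.2% of all genes, and for 2 members in challenged cells, Vsig4 and Cd47, beside 15.6% of all genes.

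Lgals9, the galectin-9 gene, rose on challenge in both genotypes. It had 227, 225 and 234 CPM in WT naive and 428, 632 and 501 CPM in WT ID8 libraries, and all challenged libraries were well above the narrow naive range. In Tim4KO cells it had 355, 172 and 190 CPM when naive and 452, 431 and 437 CPM after challenge. Tim4KO naive 1 was raised over the other two naive libraries, yet still below every challenged one. The rise was 1.19 on the log2 scale in WT (SE 0.22, edgeR adjusted p = 0.00152) and 0.88 in Tim4KO cells (SE 0.22, edgeR adjusted p = 0.0155).

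The WT call for Lgals9 held in all 20 alternative fits (0.93 to 1.34). In Tim4KO cells the value was 1.28 without Tim4KO naive 1, and the call was lost without Tim4KO naive 2, Tim4KO naive 3 or Tim4KO ID8 1 (edgeR adjusted p = 0.0758, 0.0782 and 0.0608). The responses of the genotypes differed by -0.31 (95% interval -0.98 to 0.36, edgeR adjusted p = 0.801).

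Havcr2, the gene of the galectin-9 receptor TIM-3, was scarcely detected in these macrophages. WT naive libraries held 12, 2 and 6 counts and WT ID8 libraries 2, 9 and 19. Tim4KO libraries held 0, 2 and 6 counts when naive and 2, 4 and 8 after challenge. The groups overlapped throughout, and the highest library was at 1.30 CPM. Tim-3 and Tim4 belong to one gene family, but these counts cannot show whether Havcr2 differed with Tim4.

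Lgals3, the galectin-3 gene, gave the member response with the smallest p in both genotypes. It had 311, 274 and 249 CPM in WT naive and 604, 771 and 774 CPM in WT ID8 libraries. In Tim4KO cells it had 268, 221 and 242 CPM when naive and 668, 546 and 619 CPM after challenge. Every challenged library thus lay far above every naive one. The rise was 1.37 in WT (SE 0.14, edgeR adjusted p = 1.32e-05), or 2.58-fold, and 1.33 in Tim4KO cells (SE 0.14, edgeR adjusted p = 3.49e-05), or 2.51-fold. Both calls held in all 20 alternative fits. The responses differed by -0.04 (edgeR adjusted p = 0.965), with a 95% interval of -0.46 to 0.38.

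Sirpa, the macrophage receptor of the "do not eat me" pair, also rose in both. It had 270, 326 and 314 CPM in WT naive and 382, 511 and 488 CPM in WT ID8 libraries, and 284, 309 and 307 CPM in Tim4KO naive and 428, 384 and 419 CPM in Tim4KO ID8 libraries. No challenged library overlapped a naive one. The rise was smaller than for the galectins, at 0.60 on the log2 scale in WT (SE 0.13, edgeR adjusted p = 0.00327), or 1.52-fold, and 0.45 in Tim4KO cells (SE 0.13, edgeR adjusted p = 0.0276), or 1.37-fold. The Tim4KO call was lost without any one of the 6 Tim4KO libraries (edgeR adjusted p = 0.0597 to 0.154), with values of 0.40 to 0.51. Sirpa has near-identical relatives in the Sirpb family, and reads shared with them could be split by the counting. The relative in the table that was looked up, Sirpb1a, was at 0.344 to 1.58 CPM.

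Cd47, which encodes the ligand of that receptor, had 315, 344 and 358 CPM in WT naive and 330, 401 and 340 CPM in WT ID8 libraries, which overlapped. In Tim4KO cells it had 403, 360 and 313 CPM when naive and 304, 285 and 309 CPM after challenge, just apart. The log2 differences were 0.07 in WT (SE 0.13, edgeR adjusted p = 0.663) and -0.26 in Tim4KO cells (SE 0.13, edgeR adjusted p = 0.182). With upper-quartile scaling they were -0.17 and -0.37, and the latter passed (edgeR adjusted p = 0.0237), as it did with DESeq2 (-0.31, DESeq2 adjusted p = 0.0443). The rise in Sirpa therefore had no matching called rise in Cd47 in these cells. Whether the 2 responses differed from each other was not tested.

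Siglec1, the sialoadhesin gene, had the widest spread relative to its mean of the tested members in WT naive cells. It had 25.5, 21.0 and 55.5 CPM in WT naive and 50.5, 97.4 and 118 CPM in WT ID8 libraries. WT naive 3 was above WT ID8 1, so the groups overlapped. In Tim4KO cells it had 85.2, 46.7 and 45.5 CPM when naive and 73.8, 85.8 and 85.6 CPM after challenge. The WT rise of 1.38 passed (SE 0.42, edgeR adjusted p = 0.0333), and the Tim4KO difference of 0.47 did not (SE 0.42, edgeR adjusted p = 0.501).

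The WT call for Siglec1 was lost in 11 of 20 alternative fits, among them those without WT naive 1, WT naive 2, WT ID8 2 or WT ID8 3 (edgeR adjusted p = 0.104, 0.0867, 0.0844 and 0.122) and those without any one Tim4KO ID8 library (edgeR adjusted p = 0.0503 to 0.0519). With background as a covariate it was 0.96 (edgeR adjusted p = 0.312). The naive Tim4KO cells had 59.1 ± 22.6 against 34.0 ± 18.8 CPM (SD, n = 3) in WT, a log2 difference of 0.80 that did not pass (SE 0.42, edgeR adjusted p = 0.811). The responses differed by -0.92 (95% interval -2.23 to 0.40, edgeR adjusted p = 0.714).

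**Figure D2:**
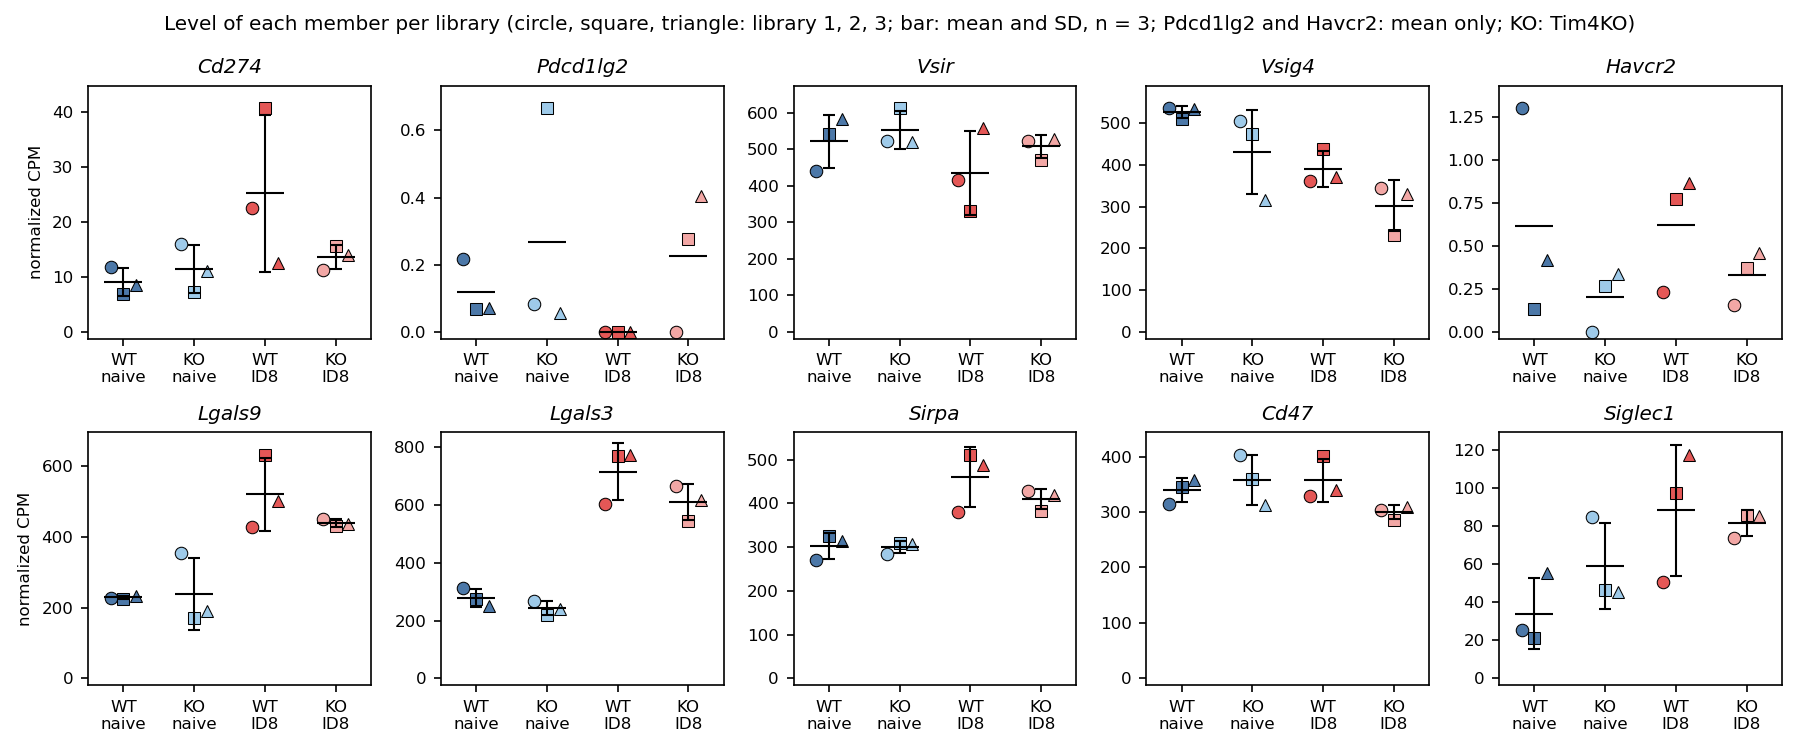
Normalized CPM of each gene in every library, 1 panel per gene with its own linear axis; circles, squares and triangles are libraries 1, 2 and 3, and bars give the mean and SD (n = 3; mean only for Pdcd1lg2 and Havcr2). Lgals3, Lgals9 and Sirpa are higher in all challenged libraries of both genotypes, while Cd274 is spread from 12.5 to 40.7 CPM in WT ID8.

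No member differed between genotypes by the main test. In naive cells 0 of the 8 were called, where 0.0439% of all genes were (0.0251% higher, 0.0188% lower), and 0 had an unadjusted p under 0.05, beside 999 of all genes. In challenged cells 0 were called, where 0.0565% of all genes were (0.00627% higher, 0.0502% lower), and 1, Cd274, had an unadjusted p under 0.05, beside 1935 of all genes. In the test of the difference between the challenge responses 0 members and 0.0% of all genes were called. There 1 member, again Cd274, and 1186 of all genes had an unadjusted p under 0.05. Apart from the Cd274 calls given above, DESeq2, limma voom and the other alternatives also called no member in these 3 comparisons.

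The median log2 difference of the 8 between Tim4KO and WT was 0.07 in naive and -0.24 in challenged cells, beside -0.0042 and 0.014 for all genes. In challenged cells Vsir alone was higher in Tim4KO on average (log2 difference 0.22, edgeR adjusted p = 0.605). The other 7 had values from -0.88 (Cd274) to -0.12 (Siglec1). The intervals still allowed sizeable differences: that of Lgals9 ran from -0.72 to 0.23 and that of Siglec1 from -1.04 to 0.80.

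**Figure D3:**
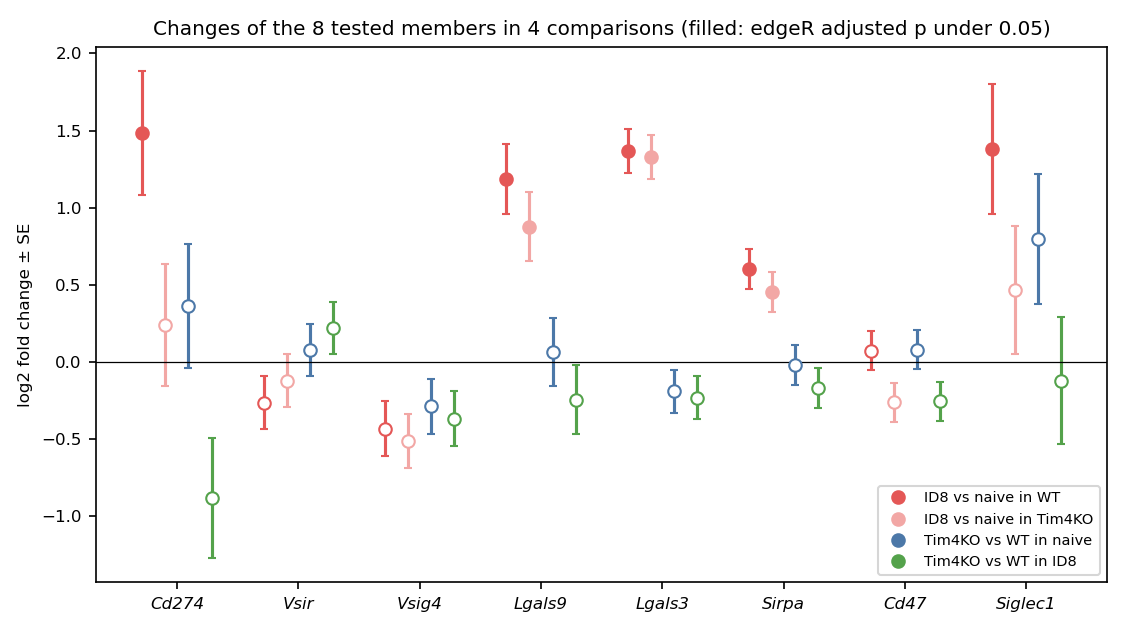
Log2 fold change and SE of the 8 tested genes in the 4 comparisons between groups, with filled points for an edgeR adjusted p under 0.05. Lgals3, Lgals9 and Sirpa are filled in both challenge comparisons, Cd274 and Siglec1 only in WT, and no genotype comparison has a filled point.

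In bulk RNA a higher level can come from more RNA per cell or from more cells of one kind, and these cannot be told apart. The rest of the checkpoint system was followed in 9 lists of genes. They were written from general knowledge, but with earlier results of these data known, so their counts are a description. In the genotype comparisons and the interaction 0 genes of any list were called. The counts below are to be read beside the shares of all tested genes. These were 19.5% higher and 12.3% lower on WT challenge, and 11.5% higher and 5.06% lower on Tim4KO challenge.

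Among the other B7, butyrophilin and nectin ligands and their relatives, 10 of 16 genes were tested. In WT cells 3 rose on challenge and 0 fell. Tnfsf9, the ligand of 4-1BB, rose by 1.48 (SE 0.47, edgeR adjusted p = 0.0276), and Tnfrsf14, the BTLA ligand HVEM, by 0.79 (SE 0.23, edgeR adjusted p = 0.0188). Cd80, a ligand of CD28 and CTLA-4, rose by 0.42 (SE 0.15, edgeR adjusted p = 0.0468), a call that 17 of 20 alternative fits lost. All 3 calls were lost without WT ID8 2, the library with the most Cd274: there the edgeR adjusted p was 0.188 for Tnfsf9, 0.074 for Tnfrsf14 and 0.209 for Cd80. Tnfsf9 was at 0.84 on the log2 scale in that fit. It was also lost without WT naive 1 or WT naive 2 (edgeR adjusted p = 0.0985 and 0.0977), and Tnfrsf14 without WT naive 2 (edgeR adjusted p = 0.0707). Of the 20 alternative fits 13 kept the Tnfsf9 call and 17 the Tnfrsf14 call. In Tim4KO cells 0 rose and 2 fell, named here after their values were seen: the costimulatory ligand genes Cd86 (-0.58, edgeR adjusted p = 0.0324) and Icosl (-1.51, edgeR adjusted p = 0.0147).

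Of 10 T cell checkpoint and costimulatory receptors, 5 were tested. The PD-1 gene Pdcd1 had 0 to 5 counts per library and Ctla4 had 1 to 7. In both genotypes 0 of the 5 rose and 2 fell. Cd28, the T cell costimulatory receptor, had 10.7, 6.08 and 8.94 CPM in WT naive and 1.38, 0.601 and 2.24 CPM in WT ID8 libraries, with a log2 difference of -2.53 (SE 0.49, edgeR adjusted p = 0.00173). It was -2.19 in Tim4KO cells (SE 0.50, edgeR adjusted p = 0.00878), and -1.43 without Tim4KO naive 3 (edgeR adjusted p = 0.0612). Icos, its inducible relative, differed by -0.89 in WT (edgeR adjusted p = 0.0171) and -1.07 in Tim4KO cells (edgeR adjusted p = 0.00983). Its call was lost without WT naive 1 in the former (edgeR adjusted p = 0.0523), and without Tim4KO naive 2, Tim4KO ID8 2 or Tim4KO ID8 3 in the latter (edgeR adjusted p = 0.0511, 0.0582 and 0.0622). Both genes were low, and 8 T or NK cell markers summed to 3.73 to 7.37 CPM in naive and 3.65 to 9.45 CPM in challenged libraries. Their part in these values was not tested.

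Among 10 other binding partners of the members, all tested, 2 rose in both genotypes and 0 fell. In WT cells this was near the share of all tested genes called higher (19.5%). Ceacam1, a partner of TIM-3, had 135, 151 and 145 CPM in WT naive and 404, 442 and 300 CPM in WT ID8 libraries. It rose by 1.41 in WT (SE 0.14, edgeR adjusted p = 8.08e-06) and 0.94 in Tim4KO cells (SE 0.14, edgeR adjusted p = 0.000398). Cd44, a hyaluronan receptor that galectin-9 binds, had 327, 309 and 311 CPM in WT naive and 1080, 963 and 576 CPM in WT ID8 libraries. It rose by 1.47 in WT (SE 0.20, edgeR adjusted p = 0.000147) and 0.72 in Tim4KO cells (SE 0.20, edgeR adjusted p = 0.0241). The latter call was lost without Tim4KO naive 1, Tim4KO naive 2, Tim4KO ID8 1 or Tim4KO ID8 3 (edgeR adjusted p = 0.055, 0.121, 0.086 and 0.0772). Ceacam1 and Cd44 were the only genes of this list called in either genotype. Hmgb1, another listed partner, is named after its values were seen. It was not called in WT (0.33, edgeR adjusted p = 0.116) or Tim4KO cells (-0.16, edgeR adjusted p = 0.544). Havcr2 itself stayed at the detection limit.

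Of the other galectins 3 were tested. Lgals1, the galectin-1 gene, had 71.5, 39.9 and 32.4 CPM in WT naive and 124, 129 and 179 CPM in WT ID8 libraries. It rose by 1.59 in WT (SE 0.28, edgeR adjusted p = 0.00126) and by 1.25 in Tim4KO cells (SE 0.28, edgeR adjusted p = 0.00891). Lgals4 was called lower in WT (-2.04, edgeR adjusted p = 0.0349). That call rested on WT naive 1, which had 9.53 CPM beside 2.34 and 1.96 CPM in the other two: without it the value was -0.95 (edgeR adjusted p = 0.266). It was also lost without WT ID8 2 or WT ID8 3 (edgeR adjusted p = 0.109 and 0.0832). Lgals4 shares sequence with the near-identical copy Lgals6, so its reads are uncertain. In Tim4KO cells the Lgals4 difference was -0.38 (edgeR adjusted p = 0.736). Galectin genes 1, 3 and 9 were thus called higher in both genotypes, with the limits given above for Lgals9 in Tim4KO cells. The remaining tested gene of this list was called in neither.

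Of 17 tested inhibitory receptors of myeloid cells, 5 rose and 1 fell in WT, and 4 rose and 2 fell in Tim4KO cells. Lair1, a collagen receptor, rose by 1.40 in WT (SE 0.19, edgeR adjusted p = 0.000115) and 0.92 in Tim4KO cells (SE 0.19, edgeR adjusted p = 0.00424). Cd300lf, a lipid receptor, rose by 1.62 (SE 0.28, edgeR adjusted p = 0.000713) and 1.34 (SE 0.28, edgeR adjusted p = 0.00526). Clec12a, a lectin that senses dead cells, rose by 1.35 in WT (SE 0.32, edgeR adjusted p = 0.00605) and by 1.21 in Tim4KO cells (SE 0.33, edgeR adjusted p = 0.0214). The latter call was lost without Tim4KO naive 2 or 3 or any one Tim4KO ID8 library (edgeR adjusted p = 0.0506 to 0.0874). The only one called lower in both, named after its values were seen, was Fcgr2b, the inhibitory Fc receptor gene (-0.61 and -0.91, edgeR adjusted p = 0.016 and 0.00259).

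Of 9 genes that signal below such receptors, 3 rose in WT and 3 in Tim4KO cells, and 0 fell. Ptpn11, the phosphatase SHP-2, rose by 0.63 in WT (SE 0.11, edgeR adjusted p = 0.000878), and its Tim4KO difference was 0.34 (edgeR adjusted p = 0.0529, and 0.0412 without WT naive 1). Dok2, an adaptor, rose by 0.59 (SE 0.17, edgeR adjusted p = 0.0169) and 0.54 (SE 0.17, edgeR adjusted p = 0.0403). The WT call was lost without WT naive 3 (edgeR adjusted p = 0.0839), and 8 of 20 alternative fits lost the Tim4KO call, among them those without WT naive 2 or without any one Tim4KO library but Tim4KO naive 1 (edgeR adjusted p = 0.0513 to 0.181).

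The interferon gamma axis that acts on Cd274 gave no called rise among 13 tested genes in either genotype, while 1 fell in WT and 3 in Tim4KO cells. Ifngr1, a chain of the interferon gamma receptor, had 222, 230 and 258 CPM in WT naive and 133, 151 and 157 CPM in WT ID8 libraries. It fell by 0.69 on the log2 scale in WT (SE 0.13, edgeR adjusted p = 0.00132) and by 0.67 in Tim4KO cells (SE 0.13, edgeR adjusted p = 0.00297). Irf1 and Socs1, a target and an inhibitor of that signal, are given here after their values were seen. In the WT ID8 libraries Irf1 had 63.2, 128 and 49.1 CPM, and Socs1 had 4.26, 6.62 and 1.37 CPM. WT ID8 2 was thus the highest and WT ID8 3 the lowest for both, as for Cd274. Siglec1 ran otherwise, with its highest level in WT ID8 3 (118 CPM). Lgals9 was highest in WT ID8 2 (632 CPM) but lowest in WT ID8 1 (428 CPM). Whether these levels are linked was not tested. Among the Tim4KO naive libraries, Tim4KO naive 1 was the highest for Irf1 (144, 80.8 and 58.3 CPM) and Socs1 (4.35, 1.20 and 1.18 CPM), as for Cd274, Lgals9 and Siglec1.

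Of 9 genes that govern the stability of PD-L1 protein, 2 rose in WT and 3 in Tim4KO cells, and 0 fell. Cops5, a deubiquitinase subunit that stabilizes PD-L1, rose by 0.84 in WT (SE 0.13, edgeR adjusted p = 0.000387) and 0.48 in Tim4KO cells (SE 0.13, edgeR adjusted p = 0.0225). Stub1, a ubiquitin ligase that promotes its loss, rose by 0.77 (SE 0.19, edgeR adjusted p = 0.00643) and 0.81 (SE 0.19, edgeR adjusted p = 0.0087). Genes of opposite action on PD-L1 were therefore both higher. The Tim4KO calls were lost without Tim4KO naive 2 or Tim4KO ID8 1 for both genes (edgeR adjusted p = 0.111 and 0.0954 for Cops5, 0.0518 and 0.0574 for Stub1). That of Cops5 was also lost without Tim4KO naive 3, Tim4KO ID8 2 or Tim4KO ID8 3 (edgeR adjusted p = 0.0891, 0.0641 and 0.0584).

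Of 11 tested genes of soluble or metabolic T cell suppression, 5 rose and 1 fell in WT, and 3 rose and 0 fell in Tim4KO cells. Arg1, the arginase that depletes arginine, had 165, 179 and 143 CPM in WT naive and 3353, 3690 and 1980 CPM in WT ID8 libraries. In Tim4KO cells it had 109, 77.5 and 60.7 CPM when naive and 1175, 1583 and 1249 CPM after challenge. It rose by 4.21 in WT (SE 0.27, edgeR adjusted p = 5.19e-07) and 4.02 in Tim4KO cells (SE 0.27, edgeR adjusted p = 1.3e-06), far more than any member. Cd24a, which encodes a further anti-phagocytic surface ligand, rose by 1.12 (SE 0.25, edgeR adjusted p = 0.00539) and 1.82 (SE 0.26, edgeR adjusted p = 0.000596). Fgl2, a secreted suppressor, rose by 1.47 in WT (SE 0.32, edgeR adjusted p = 0.00486), and its Tim4KO difference was 0.83 (edgeR adjusted p = 0.0984). That difference passed without Tim4KO naive 1 (1.19, edgeR adjusted p = 0.0219) or WT ID8 2 (edgeR adjusted p = 0.0326). Il10 was below the filter, with 1 to 12 counts per library.

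**Figure D4:**
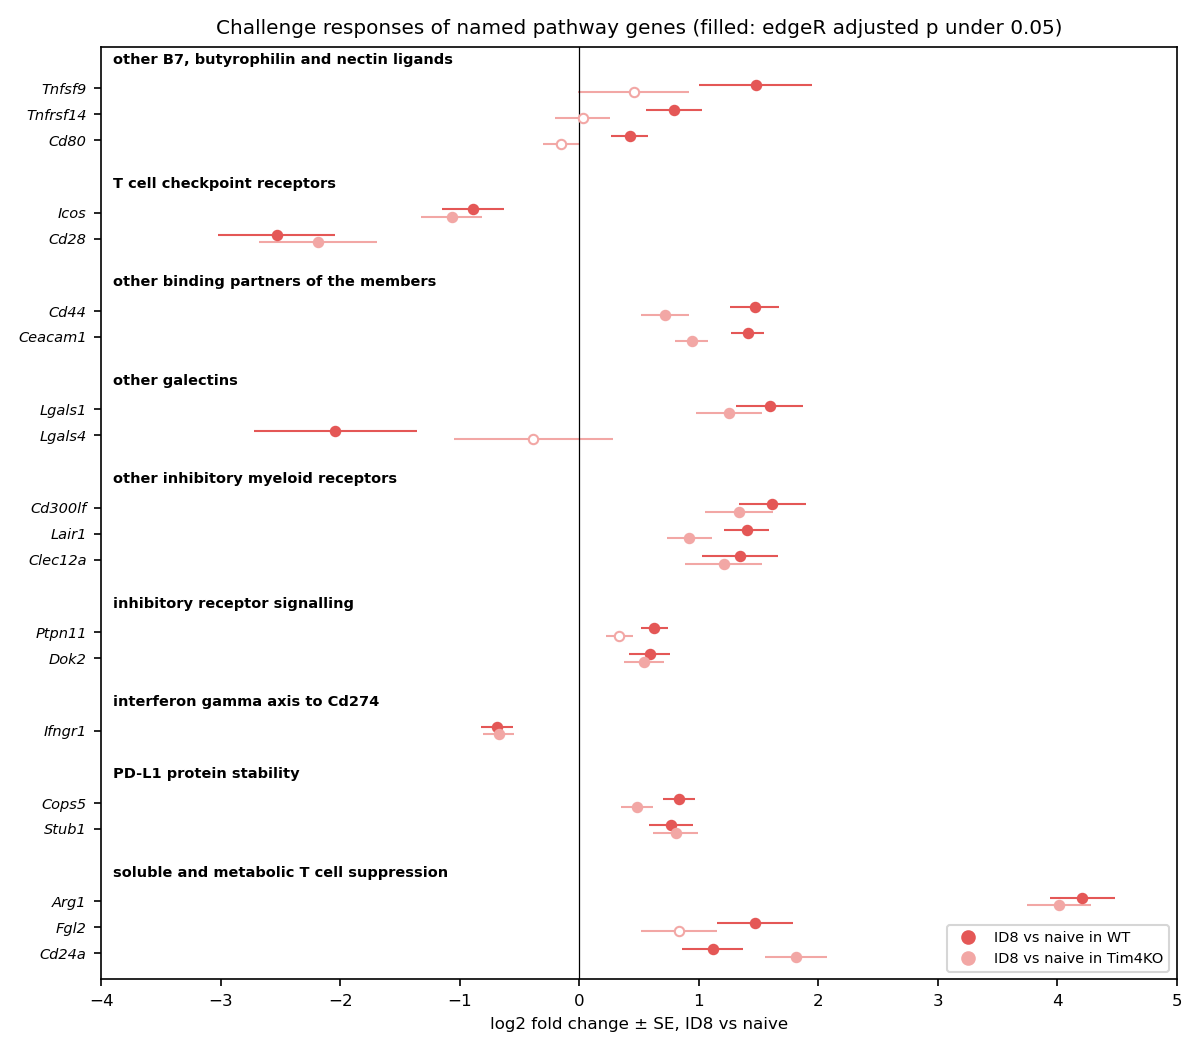
Challenge response (log2 fold change and SE, ID8 against naive) of the named pathway genes in WT and Tim4KO cells, grouped by list, with filled points for an edgeR adjusted p under 0.05. Arg1 lies far to the right at 4.21 and 4.02, and Cd28, Icos and Ifngr1 lie left of 0 in both genotypes.

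For each tested member the 2 genes most like it were taken by Pearson r of log2 CPM over the 12 libraries, among 8109 genes with a mean of at least 10 CPM and a proper symbol. All genes share the condition and depth of these libraries, so r is a description. They were Ms4a6d (r = 0.969) and Fam136a (0.945) for Cd274, Cnppd1 (0.954) and Sec14l1 (0.951) for Vsir, and Myl12b (0.939) and Ube2b (0.937) for Vsig4. For Lgals9 they were Sgta (0.984) and Nubp2 (0.981), for Lgals3 Gipc1 (0.9899) and Pgk1 (0.9895), and for Sirpa Pmaip1 (0.99) and Xpo1 (0.975). For Cd47 they were Utp3 (0.95) and Mfap1a (0.913), and for Siglec1 Znfx1 (0.933) and Mov10 (0.926). Ms4a6d, a membrane protein of macrophages, had 222 ± 102 CPM (SD, n = 3) in WT ID8 beside 104 ± 12.7 CPM in WT naive cells. A wide spread in WT ID8, like that of Cd274, follows from its choice by r over these same libraries.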

How the data were processed

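The authors' count table held whole-number read counts, by Ensembl gene, of 12 SMART-Seq mRNA LP libraries. That the deposited counts are raw was read from the values. Per the submitters' processing notes, FastQC, STAR 2.5 and the builds mm10 and GRCm39 were used, with no role given. The counting program, annotation, strand and multi-mapping settings are not given in the sources used here. GENCODE vM21 was used for names (52081 of 57010 genes), exon lengths and overlaps, and RefSeq GRCm38.p6 for promoters.

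The 15943 genes passing filterByExpr went into a robust quasi-likelihood fit (edgeR 4.0.16, R 4.3.3) with TMM scaling, group means over all 12 libraries, 8 residual degrees of freedom, two-sided tests, and Benjamini-Hochberg adjustment over all tested genes with a threshold of 0.05. The 5 comparisons were genotype within each condition, challenge within each genotype, and the interaction. Intervals are 95%. The test was checked on simulated data. Alternatives used DESeq2 1.42.0 and limma 3.58.1, other scalings and filters, a replicate block, a background covariate and each library left out. SMART-Seq reads without molecular identifiers are not independent molecules, so the 3-count floor covers counting error only.

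The members and lists were chosen with earlier results of these data known. The rule for named genes took all members and, of each list, up to 3 genes with the smallest p in the WT challenge comparison. For each member it took the 2 genes with the highest r. Values of some of these genes are not reported here.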

Additional observations from a re-analysis of the deposited data

How the results depend on the processing

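Over 20 alternatives, the calls of Lgals3 in both genotypes and of Lgals9 in WT cells held in every fit. The Sirpa call in WT was lost only with the background covariate (0.43, edgeR adjusted p = 0.0654). Leaving out single libraries, the members called ranged from 3 to 5 in the WT and 1 to 4 in the Tim4KO challenge comparison, and from 0 to 1 between genotypes in ID8 cells. Upper-quartile scaling and DESeq2 each called 5 in the Tim4KO challenge comparison, and the fit without a low-count filter called 1 between genotypes in ID8 cells and 1 in the interaction. The cause was not tested.

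Of the named pathway calls, the covariate ended those of Cd80 (0.38, edgeR adjusted p = 0.203), Icos (-0.97, edgeR adjusted p = 0.0646), Lgals4 (-0.82, edgeR adjusted p = 0.461), Clec12a (1.26, edgeR adjusted p = 0.0604), Stub1 (0.43, edgeR adjusted p = 0.164) and Cd24a (0.98, edgeR adjusted p = 0.0554) on WT challenge.

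Directions turned for some values, most of them near 0 in the main fit. Furthest from 0 there were Lgals4 on Tim4KO challenge (-0.38) and the interaction of Lgals9 (-0.31). With limma voom Lgals9 between genotypes in naive cells was -0.013. With upper-quartile scaling Cd47 was -0.17 on WT challenge, Tnfrsf14 was -0.087 on Tim4KO challenge, and the interaction was 0.056 for Vsig4 and 0.094 for Lgals3. With the background covariate Siglec1 between genotypes in ID8 cells was 0.14, the interaction of Lgals3 was 0.060 and Lgals4 on Tim4KO challenge was 0.11. Tnfrsf14 on Tim4KO challenge was -0.018 with DESeq2 size factors, -0.022 with DESeq2 and -0.052 with limma voom. Leaving out single libraries, the values between genotypes in naive cells ranged from -0.027 to 0.17 for Vsir, -0.34 to 0.25 for Lgals9, -0.094 to 0.037 for Sirpa and -0.014 to 0.17 for Cd47. Siglec1 between genotypes in ID8 cells ranged from -0.43 to 0.13, Cd47 on WT challenge from -0.0059 to 0.16 and Tnfrsf14 on Tim4KO challenge from -0.16 to 0.23. The interaction ranged from -0.037 to 0.36 for Vsir, -0.27 to 0.076 for Vsig4, -0.50 to 0.094 for Lgals9 and -0.18 to 0.035 for Lgals3.

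Counts over all genes moved more. Between genotypes in naive cells 7 genes were called, 59 without the filter, 52 with DESeq2, 2 with only the groups compared, 4 with limma voom, 3 with the replicate block and 1 to 23 without single libraries. In ID8 cells 9 were called, 264 without the filter, 265 with DESeq2, 197 with the background covariate, 14 with the replicate block and 1 to 1078 without single libraries, the highest without WT ID8 3. The interaction called 0, 73 without the filter, 11 with DESeq2, 2 with the covariate and 0 to 399 without single libraries, the highest without WT ID8 3. The challenge called 5067 in WT (3356 to 6635 without single libraries) and 2642 in Tim4KO cells (1287 to 3713). Upper-quartile scaling moved the median log2 change of all genes from -0.04 to -0.28 in WT and from -0.05 to -0.17 in Tim4KO cells, and the share of calls that were higher from 61.3% to 33.9% and from 69.5% to 48.7%.

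Libraries with the same replicate number did not deviate together (18 correlations from -0.50 to 0.42, and 2 of 12 libraries correlated best with their own number). The labels say nothing of a pairing, but 3 libraries a group are too few to exclude one. With the replicate block the members called were 0, 0, 5, 3 and 0 over the 5 comparisons, the same numbers as without it. Depth limits Pdcd1lg2 and Havcr2, whose counts of 0 to 19 per library show no difference or its absence.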
